A study of Mus musculus with 8 samples.

Results

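The cadherin superfamily was examined in lists of N6-methyladenosine (m6A) peaks from mouse embryonic fibroblasts. Members were the entries whose gene name begins with Pcdh, Dchs or Celsr, begins with Cdh and a digit, or is Fat1, Fat2, Fat3 or Fat4. By this rule 302 of 38705 peaks, on 54 of 9779 genes, were members. They comprised 198 peaks on 22 genes outside the protocadherin clusters and 104 peaks on 32 clustered protocadherins. The latter share constant exons and are described apart.

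MeRIP-seq sequences fragments of polyadenylated RNA that are immunoprecipitated (IP) with an antibody against m6A, beside an input library made without it. All fibroblasts were wild-type C57BL/6 cells derived from embryos of 13.5 days, a mixed primary population rather than a clonal line. The control cells were untreated, and the starved cells spent 2 h in nutrient-deprived medium. Each group held 2 replicates with 1 IP and 1 input library apiece (8 samples), and the question was how m6A differs between these groups.

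Cadherins are transmembrane adhesion proteins built from extracellular repeats that bind calcium between neighbouring repeats. Classical cadherins join cells through catenins and actin, the giant Fat and Dchs proteins form a receptor and ligand pair that orients cells within a sheet, Celsr proteins belong to the core planar polarity pathway, and protocadherins mediate selective contact, foremost in neurons. Fibroblasts are known for N-cadherin (Cdh2) and for Cdh11, whereas E-cadherin (Cdh1) marks epithelia. In mRNA, m6A is placed mainly within sequences holding GGAC or close variants, and is known to be dense near stop codons and in long internal exons.

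Sequences are shown first for the coding regions on which the comparison of the groups turns. Each is reference sequence of GRCm38 (RefSeq; the assembly of mm10) on the transcribed strand, 200 bases at the part of the region that most libraries shared, with GGAC in capitals. These 5 are the non-clustered coding regions where a peak was listed in both libraries of one group only.
Cdh6, chr15:13064321-13064520, minus strand: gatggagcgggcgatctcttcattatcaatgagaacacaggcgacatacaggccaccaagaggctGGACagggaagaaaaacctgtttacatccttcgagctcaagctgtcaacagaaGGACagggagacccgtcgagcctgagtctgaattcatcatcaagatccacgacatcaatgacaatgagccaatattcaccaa
Fat4, chr3:38949458-38949657, plus strand: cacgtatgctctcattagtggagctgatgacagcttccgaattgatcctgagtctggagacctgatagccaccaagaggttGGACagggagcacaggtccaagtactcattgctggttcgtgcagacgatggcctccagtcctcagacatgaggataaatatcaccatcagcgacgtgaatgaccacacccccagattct
Fat3, chr9:16377587-16377786, minus strand: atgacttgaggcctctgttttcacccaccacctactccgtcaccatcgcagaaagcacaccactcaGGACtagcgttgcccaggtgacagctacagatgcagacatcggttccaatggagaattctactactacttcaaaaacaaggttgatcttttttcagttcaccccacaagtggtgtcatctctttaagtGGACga
Fat1 exon 14, chr8:45033347-45033546, plus strand: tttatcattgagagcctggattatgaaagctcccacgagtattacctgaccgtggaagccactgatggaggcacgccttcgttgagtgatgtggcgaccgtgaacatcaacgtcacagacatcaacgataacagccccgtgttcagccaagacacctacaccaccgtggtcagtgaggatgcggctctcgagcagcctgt
Pcdh19, chrX:133588056-133588255, minus strand: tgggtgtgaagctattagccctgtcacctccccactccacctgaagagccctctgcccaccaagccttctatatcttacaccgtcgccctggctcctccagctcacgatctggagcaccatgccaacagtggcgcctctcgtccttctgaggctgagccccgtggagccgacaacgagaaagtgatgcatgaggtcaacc
The next 4 lay in regions with a peak in all 4 libraries whose fold enrichments did not overlap between the groups.
Pcdh20, chr14:88469030-88469229, minus strand: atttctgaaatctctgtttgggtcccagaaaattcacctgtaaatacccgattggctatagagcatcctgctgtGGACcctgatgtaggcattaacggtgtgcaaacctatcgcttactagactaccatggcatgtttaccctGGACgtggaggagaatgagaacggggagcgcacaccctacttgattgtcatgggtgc
Pcdh9, chr14:93887347-93887546, minus strand: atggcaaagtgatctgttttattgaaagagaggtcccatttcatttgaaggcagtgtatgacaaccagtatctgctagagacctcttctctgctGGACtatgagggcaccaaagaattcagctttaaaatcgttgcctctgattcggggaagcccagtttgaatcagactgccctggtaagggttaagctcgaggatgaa
Cdh3, chr8:106545025-106545224, plus strand: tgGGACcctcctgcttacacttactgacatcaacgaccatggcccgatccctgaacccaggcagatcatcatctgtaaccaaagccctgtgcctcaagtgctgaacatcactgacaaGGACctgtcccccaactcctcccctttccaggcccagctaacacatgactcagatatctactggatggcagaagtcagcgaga
Fat1 exon 9, chr8:45024659-45024858, plus strand: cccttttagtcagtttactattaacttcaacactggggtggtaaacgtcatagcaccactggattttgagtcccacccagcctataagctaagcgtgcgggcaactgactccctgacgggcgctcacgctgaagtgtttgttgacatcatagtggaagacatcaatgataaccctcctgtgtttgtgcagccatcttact

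GGAC was in 6 of these 9 windows, and both Fat1 windows and that of Pcdh19 held none. On the transcribed strand, 61.6% to 64.2% of all peaks in the 4 libraries held GGAC in such a window at their centre. In the Cdh6 and Fat4 windows a GGAC spans a leucine codon and the aspartate codon GAC, followed by codons for arginine and glutamate, which is the LDRE calcium-binding motif of cadherin repeats. This placement was a feature of the family's coding sequences. Of 671 GGAC in the coding sequences of the 22 non-clustered genes, 47 (7.0%) encoded Leu-Asp-Arg-Glu, against 48 of 90761 (0.0529%) in 9331 other genes with a peak. A GGAC spanned leucine and aspartate codons in 139 of 671 cases (20.7%), against 11.1% in the other genes. Fat4, with 10, and Dchs1, with 7, held the most such 4-residue motifs with GGAC among these 22 genes.

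The same frame was then counted under the peaks, by window and not by GGAC, so these shares are not comparable with those above. Of non-clustered coding peaks with GGAC in 200 bases of spliced transcript at their centre, 12 of 29 in control library 1, 14 of 26 in control library 2, 12 of 25 in starved library 1 and 10 of 29 in starved library 2 held a leucine-aspartate GGAC (34.5% to 53.8%). Among other genes the range over the 4 libraries was 15.8% to 17.1%. The 4-residue motif itself was in 13.8% to 20% of the members' windows and in 0.0993% to 0.209% of the others. The members' coding sequences hold this frame more often than other genes do, with or without peaks. Peaks were not compared with the rest of the members' own coding sequence, so whether they favour this frame was not tested. The peaks give no position of the methylated base, so whether these adenosines carry m6A was not measured.

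The 4 peak lists held 10103 and 9871 peaks (control) and 9757 and 8974 peaks (starved). The authors' fold enrichment, the ratio of IP to background set from the input, had a median of 12.21 and 12.27 in the control and 14.58 and 14.69 in the starved libraries. The score of a peak, minus 10 times log10 of its p-value, was 3100 or more in 17% and 13.2% of control peaks and in 28.5% and 27.8% of starved peaks. The authors' false discovery rate had a median of 15.8% to 21.2% over the 4 lists and was at least 7.52% for every member peak. The files hold no read counts, so sequencing depth was unknown, and a missing peak is not absence of m6A or of the transcript. Of the fibroblast markers considered, 9 of 14 had a peak in some library, with Pdgfra and Pdgfrb in all 4, while Col1a1, Vim, Dcn, Lum and Twist2 had none. Of the markers of other lineages, 3 of 8 epithelial, 3 of 7 endothelial and 4 of 7 neural genes had one, with Nes, also known from cultured fibroblasts, the only one in all 4. Epcam, Cdh1, Pecam1 and Cdh5 had none, while Krt18 had a peak in 2 libraries and Kdr in 3. The part of such cells in the results was not tested.

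Non-clustered members had 53 and 52 peaks in control cells and 46 and 47 after starvation, on 19, 20, 18 and 18 genes. The mean was 52.5 ± 0.707 (SD, n = 2) against 46.5 ± 0.707 (SD, n = 2), a difference larger than the spread between replicates. The two-sided exact permutation test over the 3 distinct divisions of 4 libraries gave p = 0.33, the smallest it allows, so no comparison between groups could reach 0.05. The number of all peaks differed in the same direction, 9987 ± 164 in the control and 9366 ± 554 in the starved libraries (SD, n = 2 each). The difference of the members was -2.50 with lists of equal length (exact permutation p = 0.667). The labels do not say that replicates were separate cultures, so the tests measure only the spread between these libraries.

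**Figure D1:**
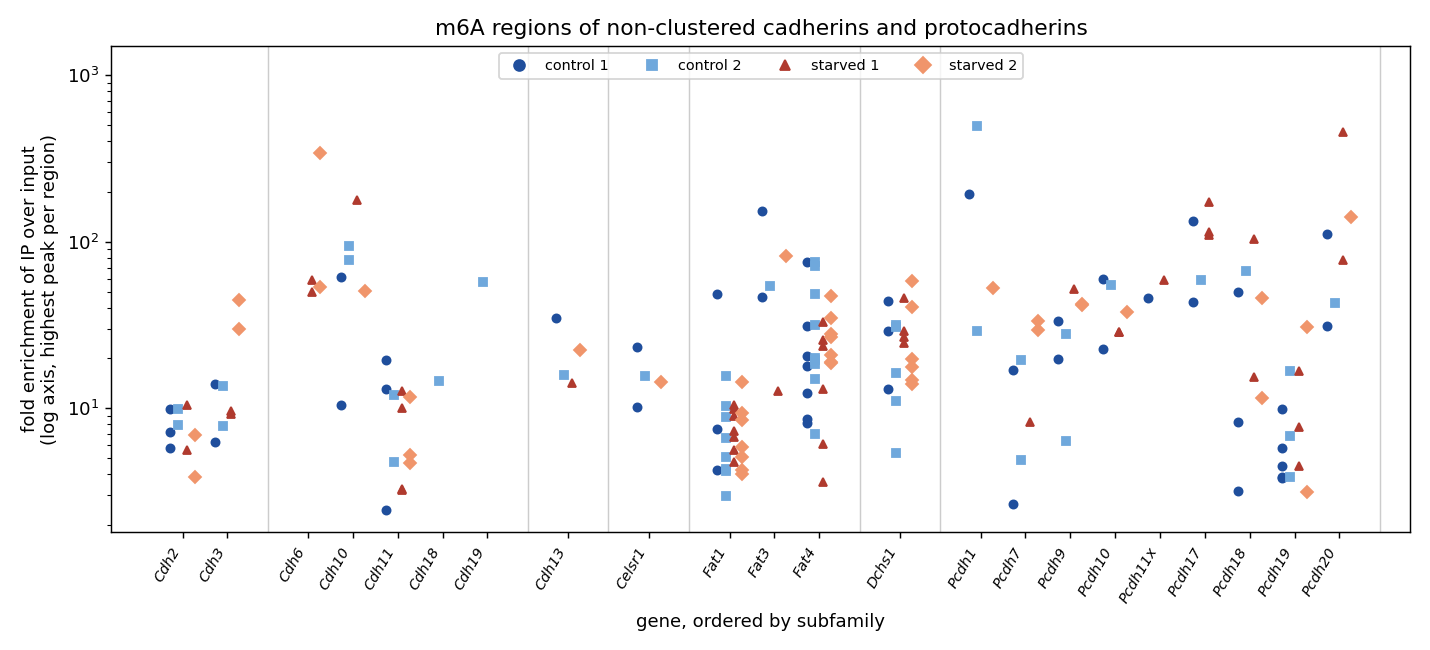
Fold enrichment (log axis) of every m6A region of the 22 non-clustered genes with a peak, 1 symbol per region and library, with colours and shapes for the 4 IP libraries and vertical lines between subfamilies. Fat1 and Fat4 hold many regions, Cdh6 has symbols of the starved libraries only, and the values run from 2.45 to 494.90.

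Of 44 annotated non-clustered genes, 22 had a peak in some library. The share of all annotated genes with a peak was not counted. Of the 22 with a peak, 15 had one in all 4 libraries. Among all 9779 genes with a peak, 2856 (29.2%) had one in every list. The 15 were Cdh2 and Cdh3 of 5 type I cadherins, Cdh10 and Cdh11 of 14 type II cadherins, Cdh13, Fat1, Fat3, Fat4, Dchs1, and Pcdh7, Pcdh9, Pcdh10, Pcdh18, Pcdh19 and Pcdh20 of 12 protocadherins. Celsr1, Pcdh1 and Pcdh17 were in 3 lists, Cdh6 and Pcdh11x in 2, and Cdh18 and Cdh19 in 1. Without a peak were, among others, Cdh1, the endothelial Cdh5, the muscle cadherin Cdh15, the Dchs1 relative Dchs2, Fat2, Celsr2, Celsr3, and Cdh23 and Pcdh15, which form the tip link of hair cells.

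Peaks of the family lay mainly in coding sequence. The centre was coding in 75.5% and 75.0% (control) and 76.1% and 78.7% (starved) of non-clustered member peaks, and in 47.4% to 49.7% of all peaks. Conversely, 10.9% to 18.9% of the members' centres were in the 3′ UTR, against 41.6% to 44.3% of all. The groups did not overlap in the coding share (75.2% ± 0.334 against 77.4% ± 1.86, SD, n = 2 each; exact permutation p = 0.33). They stayed apart with lists of equal length, but not at a score of at least 100 (means 75.0% and 76.9%). At a fold enrichment of at least 4 they overlapped (means 76.5% and 78.4%; exact permutation p = 0.667). Without Fat1 and Fat4, a choice made after seeing the data, they also overlapped (65.3% ± 6.64 against 72.3% ± 3.75, SD, n = 2 each; exact permutation p = 0.667). An exon of 1000 nt or more held 79.2%, 65.4%, 67.4% and 66% of the members' peaks in turn, against 58.2% to 61.0% of all. In that share control library 1 stood above the others, and the groups overlapped. Without Fat1 and Fat4 the groups did not overlap in it (79.1% ± 4.77 against 69.2% ± 0.67, SD, n = 2 each; exact permutation p = 0.33).

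GGAC was within 200 bp at the centre of 67.9% and 67.3% of the members' control peaks and 71.7% and 76.6% of their starved peaks. Both starved values were higher (67.6% ± 0.436 against 74.2% ± 3.43, SD, n = 2 each; exact permutation p = 0.33). All peaks gave 61.6% and 62.9% in the control and 64.2% and 64.2% in the starved libraries, a smaller difference of the same sign.

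**Figure D2:**
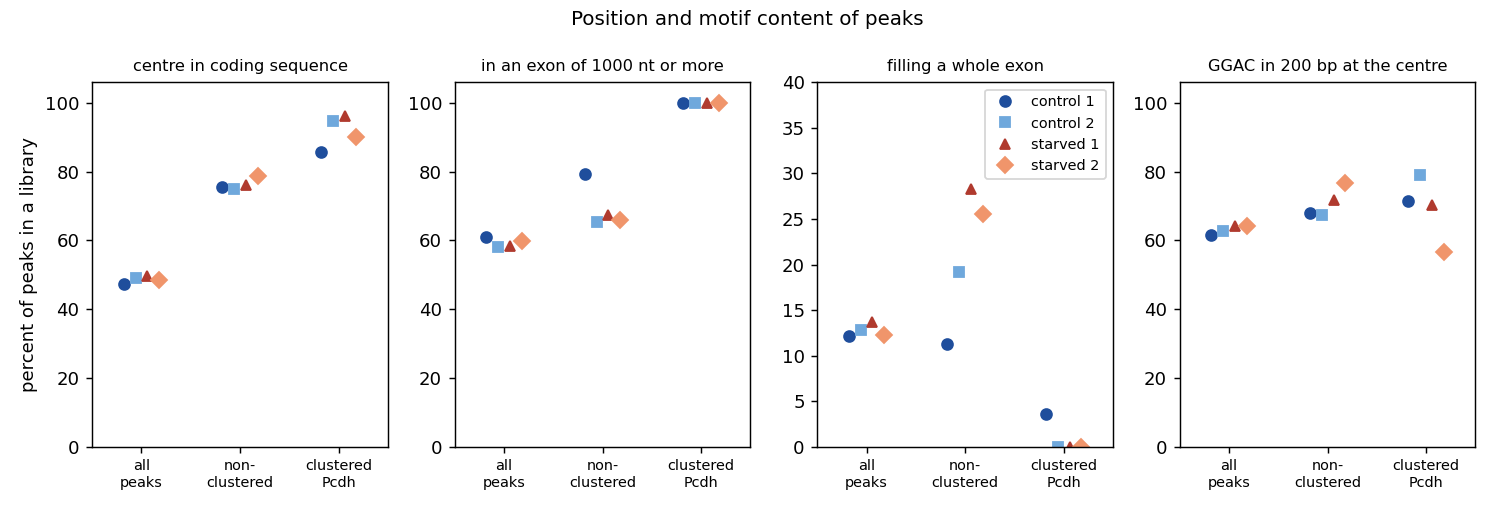
Percent of peaks with the centre in coding sequence, in an exon of 1000 nt or more, filling a whole exon (axis to 40%) and with GGAC in 200 bp, for all peaks, non-clustered members and clustered protocadherins, 1 symbol per library. The coding share of members lies between 75.0% and 96.3%, above the 47.4% to 49.7% of all peaks, and the exon-filling share of non-clustered members separates the starved from the control libraries.

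Many non-clustered peaks began and ended exactly at the borders of an exon. Such exon-filling peaks numbered 6 of 53 and 10 of 52 in the control libraries and 13 of 46 and 12 of 47 in the starved libraries (11.3%, 19.2%, 28.3% and 25.5%), against 12.1% to 13.7% of all peaks. The starved shares were both higher (15.3% ± 5.59 against 26.9% ± 1.93, SD, n = 2 each; exact permutation p = 0.33). A peak of this form marks an exon, not a position within it. Fat1 alone gave 3, 7, 7 and 6 of them in turn.

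The median fold enrichment of non-clustered peaks was 15.75 and 15.78 in control cells and 13.55 and 19.84 after starvation, so the starved values lay on both sides of the control values. On the log2 scale the starved mean was 0.06 higher (exact permutation p = 1.000), against 0.26 for all peaks. After exon-filling peaks were removed, a choice made after seeing the data, the members' medians were 15.88 and 16.72 in 47 and 42 control peaks and 25.65 and 26.72 in 33 and 35 starved peaks. The groups then did not overlap and the difference was 0.68 on the log2 scale (exact permutation p = 0.33), while that of all peaks was 0.27. The filter took 6 and 10 peaks from the control but 13 and 12 from the starved libraries, so it was not independent of the group. How far it moved the medians by itself was not tested. With the highest peak per gene the members' log2 difference was -0.02.

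Overlapping peaks of the 4 libraries were merged into regions: 92 for non-clustered members of 21168 in all. A peak was in 1 library only for 41 of the 92 (44.6%), in 2 for 21, in 3 for 18 and in all 4 for 12 (13%). Over all regions, 56.2% were in 1 library and 10.7% in all 4. Both starved libraries and neither control library had a peak in 1 region of the members (1.09%), beside 3.2% of all regions. Both control libraries and neither starved library had one in 6 (6.52%), beside 4.15% of all regions. Of these 6, the regions of Pcdh7, Pcdh19 and Fat1 were each lost under at least 1 stricter list. The starved-only count was 2 in place of 1 under each of 3 stricter lists. The added region was in Fat1 each time, but it was not the same region. It was exon 24 at a score of at least 100 and with lists of equal length, and exon 2 at a fold enrichment of at least 4.

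**Figure D3:**
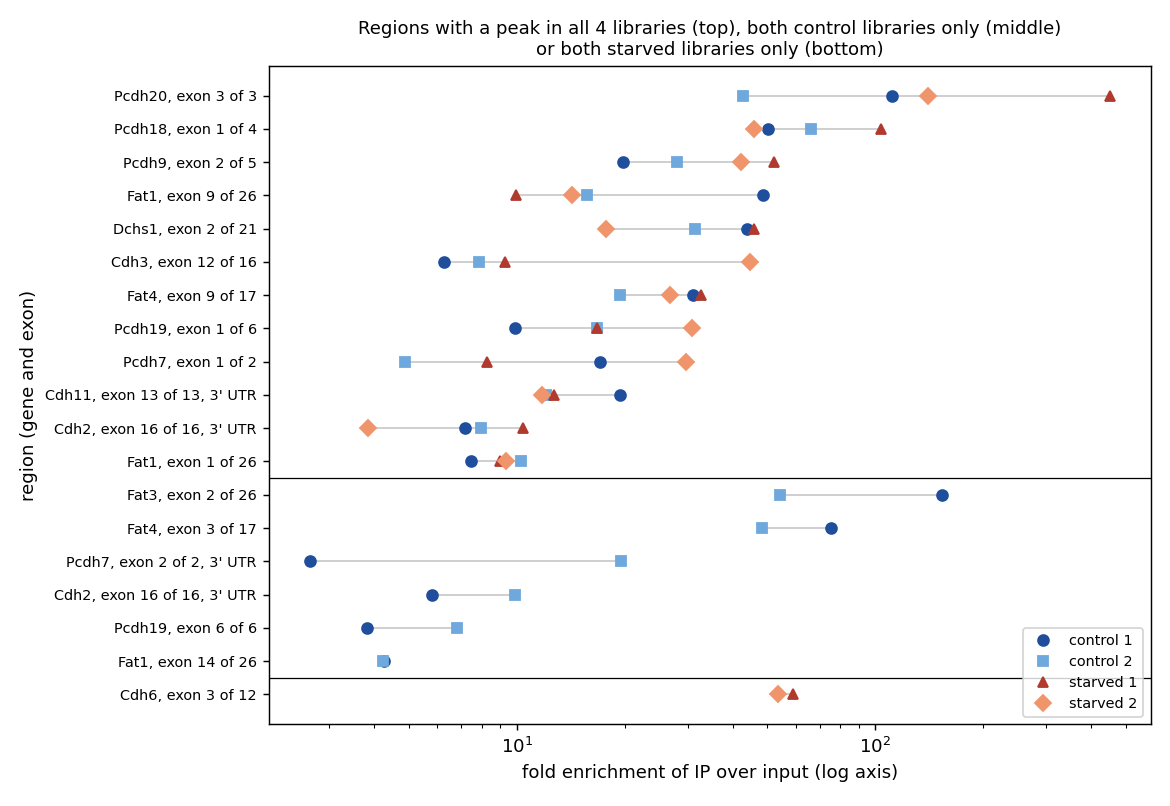
Fold enrichment (log axis) in each library for the 19 non-clustered regions with a peak in all 4 libraries (12, top), in both control libraries only (6, middle) or in both starved libraries only (1, bottom), with a line from the lowest to the highest value. In the top block both starved values exceed both control values for Pcdh20, Pcdh9 and Cdh3, and the reverse holds for exon 9 of Fat1.

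The type I cadherins were represented by Cdh2, the N-cadherin of mesenchymal cells, and Cdh3, P-cadherin. Cdh2 had a region over the end of the coding sequence and the start of the 3′ UTR in the last of 16 exons (chr18:16589652-16590353), with fold enrichments of 7.19 and 7.94 in control cells and 10.40 and 3.84 after starvation. The groups overlapped there. Further 3′, a region of the same exon (chr18:16588877-16589401) was listed only in the control libraries, at 5.79 and 9.91, both within the range of the neighbouring region.

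Cdh3 had a region in exon 12 of 16 (chr8:106545003-106545227; residues 515 to 590 of 821), at 6.25 and 7.84 in the control and 9.27 and 44.61 in the starved libraries. Both starved values were higher, by 1.54 on the log2 scale (SD 0.23 control, 1.60 starved, n = 2 each; exact permutation p = 0.33). Starved library 2 lay farthest from the rest. The peak in control library 1 had a score of 69.78 and a false discovery rate of 75.23%, and the region did not keep its 4 peaks at a score of 100 or more or with lists of equal length. The starved peaks filled the exon of 225 nt and the control peaks covered 206 bp of it. Its 3′ UTR region was listed at 13.99 and 13.65 in the control libraries, was absent from starved library 1 and stood at 29.85 in starved library 2.

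Cdh6, a type II cadherin known from kidney and neural crest, was the only non-clustered gene with a peak in both libraries of one group and neither of the other. It had no peak in either control library and 2 peaks in each starved library. Exon 3 of 12 (chr15:13064280-13064574; residues 77 to 175 of 790) had values of 58.86 and 53.67 in starved libraries 1 and 2. The other peaks were in exon 2 of starved library 1, at 49.76, and exon 12 of starved library 2, at 340.67, so they did not repeat each other. The exon 3 region was kept under each of the 4 alternative peak lists and overlaps tried. Its peaks scored 1150.64 and 807.5, so the limits on score and fold enrichment could not remove it. The exon 3 peak of starved library 1 had the same fold enrichment and score, 58.86 and 1150.64, as the peak on Pcdh11x in that library. Without counts of input reads, a difference in the Cdh6 transcript and one in its m6A cannot be told apart, nor can fewer cells of a type and less RNA per cell in any bulk library here.

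Cdh11, the osteoblast cadherin of mesenchymal cells, had its strongest region across the stop codon in the last of 13 exons (chr8:102633549-102634810). Fold enrichments were 19.45 and 12.05 in the control and 12.72 and 11.72 in the starved libraries, and the groups overlapped. Its other 5 regions ranged from 2.45 to 13.08, and in each library all were below its value at this region. Cdh10 reached 60.99, 94.63, 178.02 and 50.38 at its highest peak in turn, at regions that were in at most 3 lists. Cdh13, the cadherin held by a lipid anchor in place of a cytoplasmic tail, had 1 peak in each library, at 34.85, 15.85, 14.14 and 22.44. These lay at 3 different regions, in a 3′ UTR and a non-coding transcript. Cdh18 and Cdh19 had 1 peak each, both in control library 2, at 14.63 and 57.25.

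Celsr1 had a 3′ UTR region in 3 libraries, at 10.16 and 15.53 in the control libraries and 14.39 in starved library 2. A second region in its first exon was listed in control library 1, at 23.23.

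Fat1 had the most coding bases under peaks of the 22 genes in each of the 4 libraries, 7551, 9839, 9782 and 10177 in turn. These were 54.8% and 71.4% of its 13773 coding nt in control cells and 71.0% and 73.9% after starvation. Of its 9 regions, 8 filled an exon in at least 1 library. Exon 1 of 26 (chr8:44950208-44953481; 3274 nt) was filled in all 4 libraries, with a narrow range of fold enrichment: 7.47 and 10.26 in the control and 8.97 and 9.33 in the starved libraries. The values of the groups overlapped (log2 difference 0.06, exact permutation p = 1.000).

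Exon 9 of Fat1 (chr8:45022804-45026871; 4068 nt, residues 1606 to 2962 of 4590) was filled in 3 libraries and covered by 3910 bp in control library 2. Its fold enrichments were 48.77 and 15.70 in the control and 9.95 and 14.27 in the starved libraries. Both control values were higher, with a starved minus control log2 difference of -1.22 (SD 1.16 control, 0.37 starved, n = 2 each; exact permutation p = 0.33), and control library 1 lay farthest from the rest. Exon 14 (chr8:45033339-45033553) was listed only in the control libraries, at 4.25 and 4.22, near the lowest values of the gene. The other filled exons, 2, 12, 18, 21 and 24, were absent from control library 1 and ranged from 2.95 to 10.51 elsewhere.

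Peaks that fill an exon of 3000 nt or more were rare: 4 of 2427 peaks on such exons in control library 1, 4 of 2234 in control library 2, 7 of 2234 in starved library 1 and 5 of 2078 in starved library 2. Fat1 accounted for 2, 1, 2 and 2 of them. For exon-filling peaks of any length, 15, 3, 2 and 5 genes had more than Fat1 in turn, among 893 to 1072 genes with at least 1.

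**Figure D4:**
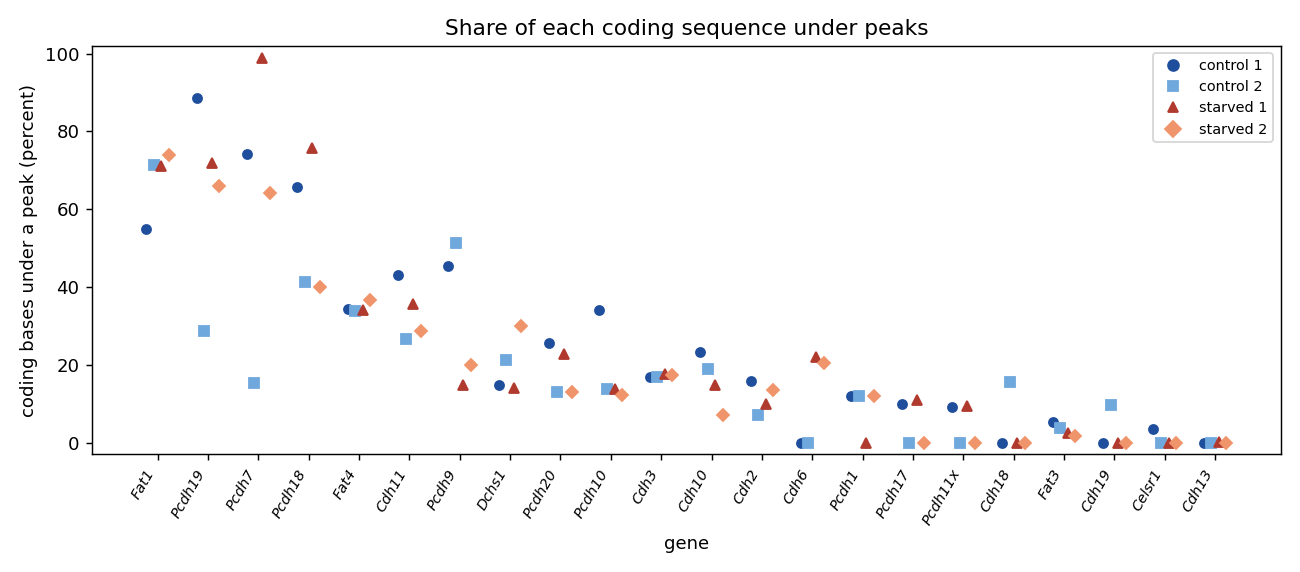
Percent of the coding sequence under peaks for each of the 22 non-clustered genes, 1 symbol per library, ordered by the mean over libraries. Fat1 lies between 54.8% and 73.9%, whereas Pcdh7 and Pcdh19 spread widely between libraries and Cdh6 is above 0 in the starved libraries only.

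Fat4, the receptor partner of Dchs1, had a lower covered share than Fat1 in each library. It had 10 and 11 peaks in the control and 6 and 8 in the starved libraries, over 34.3%, 33.7%, 34.1% and 36.6% of 14946 coding nt. Coverage thus varied less between libraries than the number of peaks. Its region in all 4 libraries, in exon 9 of 17 (chr3:38979651-38983030; residues 2484 to 3610 of 4981), had 31.07 and 19.41 in the control and 32.74 and 26.72 in the starved libraries. The groups overlapped by the highest peak per library, but not by the mean of its peaks (log2 difference 0.27 against 0.76). Exon 3 (chr3:38949441-38949702; residues 1770 to 1857) had a peak in the control libraries only, at 75.22 and 48.46. That control-only call was kept under each of the 4 alternatives, unlike those of Pcdh7, Pcdh19 and Fat1. Both of its peaks scored 3100, so the limits on score and fold enrichment could not remove it.

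Fat3 had 2, 1, 1 and 1 peaks, and the libraries of 1 group shared a region only in the control. This region in exon 2 of 26 (chr9:16377514-16378009; residues 77 to 242 of 4555) stood at 153.92 and 54.34 and was kept under each of the 4 alternatives. Its peaks scored 3100 and 558.27, so the limits on score and fold enrichment could not remove it. The starved peaks of Fat3 were elsewhere, in exon 10 of starved library 1, at 12.74, and within exon 2 of starved library 2, at 81.57. Peaks covered at most 5.27% of its coding sequence, against at least 54.8% for Fat1, a gene of like coding length.

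Dchs1, the ligand of Fat4, had 3 and 6 peaks in the control and 4 and 6 in the starved libraries. Its shared region in exon 2 of 21 (chr7:105771955-105773282; residues 1 to 419 of 3291) stood at 43.97 and 31.51 in the control and 46.03 and 17.70 in the starved libraries, with overlapping groups. One region of the last exon stood at 13.10 and 11.05 in the control libraries and 58.48 in starved library 2, and had no peak in starved library 1.

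Of the 12 non-clustered regions with a peak in all 4 libraries, that of the protocadherin Pcdh20 had the highest single value. This region in the last of 3 exons (chr14:88468896-88469285; residues 193 to 323 of 952) stood at 111.08 and 42.70 in the control and 453.29 and 139.95 in the starved libraries. Both starved values were higher, with a log2 difference of 1.87 (SD 0.98 control, 1.20 starved, n = 2 each; exact permutation p = 0.33). Each library placed 297 to 374 bp there within an exon of 4984 nt, so the site was narrow and repeated. It kept its order under the 5 alternatives tried. With 1 peak per library, at scores of at least 468.95, the mean per library and the limits on score and fold enrichment could not change that order.

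Pcdh9 had a region in exon 2 of 5 (chr14:93885697-93888351; residues 128 to 1012 of 1237) at 19.83 and 27.98 in the control and 52.04 and 42.31 in the starved libraries. The log2 difference was 0.99 (SD 0.35 control, 0.21 starved, n = 2 each; exact permutation p = 0.33). The control peaks were longer, 1685 and 1908 bp in 2 pieces each against 546 and 655 bp in 1 piece. With overlap of at least 50% of the shorter peak the region was divided, its 4-library call was lost and a part of it became a control-only region.

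Among the 12 regions listed in all 4 libraries, those 3 of Pcdh20, Pcdh9 and Cdh3 had both starved values above both control values (25.0%), beside 22.9% of all 2257 such regions, and the 1 in exon 9 of Fat1 the reverse (8.33%), beside 18% of all. Over the 12 regions the median log2 difference was 0.27, against 0.10 over all 2257. The members' shares are thus close to those of all regions in the starved direction.

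Pcdh18 was strongly enriched in its first exon (chr3:49754635-49757190; residues 1 to 744 of 1134), at 50.11 and 66.29 in the control and 103.77 and 46.01 in the starved libraries. The groups overlapped. Pcdh19, mutated in a form of epilepsy in girls, had a region in its first exon (chrX:133685118-133687350; residues 1 to 716 of 1145) at 9.89 and 16.70 in the control and 16.70 and 30.80 in the starved libraries, which touched but did not separate. Its last exon (chrX:133587635-133588577) was listed only in the control libraries, at 3.81 and 6.82, and was lost at a fold enrichment of 4 or more.

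Pcdh7 showed how much the extent of a peak can vary. Its merged region over all of exon 1 of 2 (chr5:57718021-57722278) held 2381 and 775 bp of peaks in the control libraries. In the starved libraries it held 4258 and 2770 bp. Fold enrichments were 17.02, 4.88, 8.28 and 29.67 in turn. The covered share of its coding sequence ran from 15.4% in control library 2 to 98.9% in starved library 1. A 3′ UTR region (chr5:57728903-57729428) was in the control libraries only, at 2.64 and 19.51, and was lost at a fold enrichment of 4 or more and with lists of equal length.

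The other protocadherins had no region in all 4 libraries. Pcdh10 had a coding region at 59.54 and 55.31 in the control libraries and 37.74 in starved library 2. Pcdh1 held the highest fold enrichment of the 22 genes, 494.90 in control library 2, where the same coding region stood at 193.01 in control library 1 and 52.56 in starved library 2. Pcdh17 was listed at 43.56 to 174.16 in 3 libraries, at different regions, and was absent from starved library 2. A 5′ UTR region was shared by control library 1 and starved library 1, and its other regions were in 1 library each. Pcdh11x had 1 peak in control library 1 and 1 in starved library 1, at different regions.

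Partners of the family were counted on a list of 46 genes: catenins, nectins, planar polarity proteins, proteases, repressors and desmosomal cadherins. A peak was found on 31 of them. Of these 31, 13 had one in all 4 libraries, beside 29.2% of all genes with a peak. Of the partners' 82 regions, 0 were in both libraries of one group and neither of the other, beside 3.2% and 4.15% of all regions. Of 14 regions in all 4 libraries, 3 had both starved values above both control values, beside 22.9% of all, and 3 the reverse, beside 18% of all. Ctnnb1, the β-catenin that links classical cadherins to actin through α-catenin, stood at 13.09 and 14.27 in the control and 4.26 and 7 in the starved libraries. A region of Zeb1, a repressor of Cdh1, stood at 17.44 and 10.41 against 54.65 and 25.42 (chr18:5772429-5773986). By the highest peak per library Zeb1 stood at 21.97 and 25.59 against 54.65 and 25.42, with overlapping groups. Ctnnb1 and Zeb1 were chosen for mention after their values were seen.

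The clustered protocadherins lie in 3 tandem groups on chromosome 18. Each variable first exon has its own promoter and, in the α and γ groups, is spliced to 3 constant exons common to the group, whereas β genes have a single exon. Choice among promoters gives each neuron its own surface identity. Peaks numbered 28 and 19 in the control and 27 and 30 in the starved libraries, on 21, 17, 20 and 23 genes (23.5 ± 6.36 against 28.5 ± 2.12, SD, n = 2 each; exact permutation p = 0.667), and the groups overlapped. The difference of 5 peaks was 0.5 without control library 2 and 9.5 without control library 1.

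The names were 57 clustered genes annotated as protein-coding in RefSeq and Pcdhgb8, which is not but has a coding GENCODE model. Of these, 32 had a peak in some library. Among the 32, 8 had one in all 4, beside 29.2% of all genes with a peak. The γ group had the most, 21 of its 22 names, compared with 8 of 22 β and 3 of 14 α names. The few β peaks, 3 and 4 in the control and 4 and 4 in the starved libraries, had median fold enrichments of 181 and 127 in the control and 58.5 and 126 in the starved libraries, and 9 of the 11 β regions were in 1 library only. In the γ group peaks numbered 22 and 13 in the control and 21 and 25 in the starved libraries. The median fold enrichment of clustered peaks, 37.2 and 21.5 in the control and 28.9 and 34.3 in the starved libraries, was above the 12.21 to 14.69 of all peaks. It was also above that of other coding peaks in exons of 1000 nt or more, 15.26 and 14.76 in the control and 18.58 and 18.35 in the starved libraries. The groups did not separate (log2 difference 0.16, exact permutation p = 1.000).

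**Figure D5:**
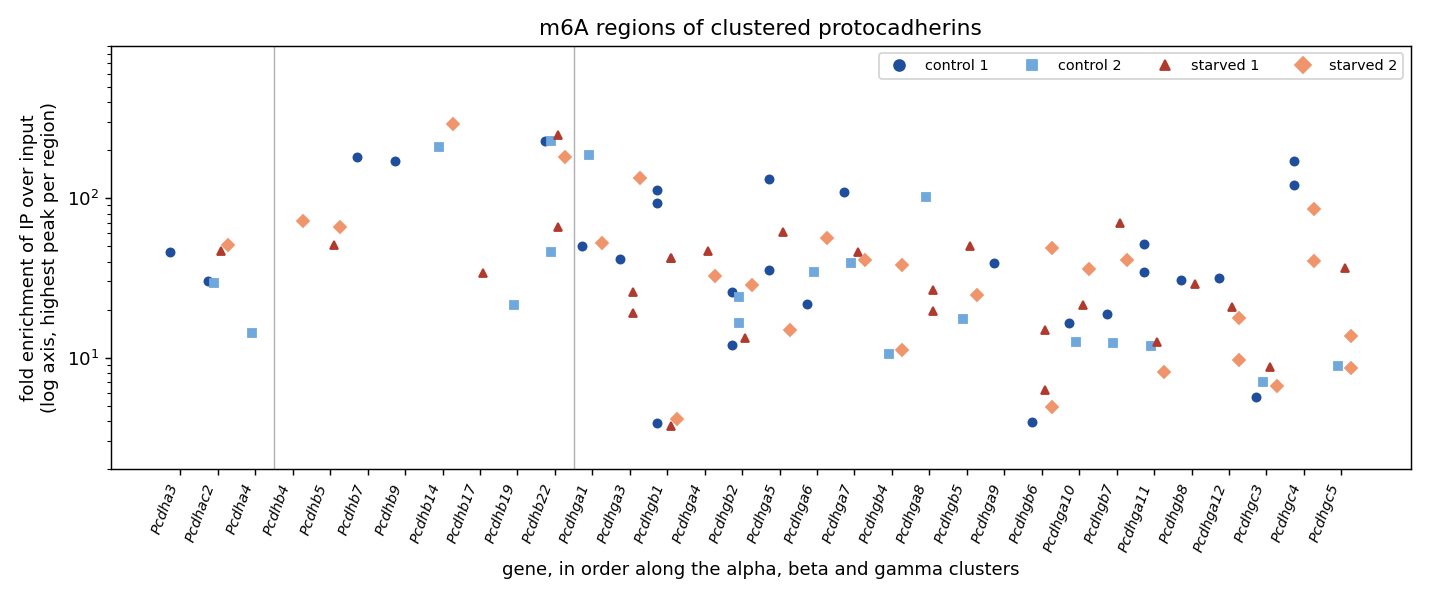
Fold enrichment (log axis) of every region of the 32 clustered protocadherins with a peak, 1 symbol per region and library, in order along the α, β and γ groups (vertical lines). Most genes have symbols in only some libraries, and Pcdhac2, Pcdhb22, Pcdhga10, Pcdhgb7 and Pcdhgc3 have a region in all 4.

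The centre of 85.7% and 94.7% (control) and 96.3% and 90% (starved) of clustered peaks was coding, and all were in exons of 1000 nt or more. GGAC was within 200 bp at the centre in 71.4% and 78.9% of control peaks and 70.4% and 56.7% of starved peaks. Both control values were higher, the reverse of the order in non-clustered members (exact permutation p = 0.33). In their coding sequences 105 of 484 GGAC (21.7%) spanned leucine and aspartate codons and 36 (7.44%) encoded Leu-Asp-Arg-Glu, shares like those of the non-clustered genes.

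Nearly all of these peaks were in variable exons. Of 59 merged regions, 57 lay in an exon of a single gene. A constant exon held 2: one in the exon shared by 14 α genes, listed under Pcdha4 at 14.24 in control library 2, and one in the exon shared by 21 γ genes, listed under Pcdhgb1 at 3.88 in control library 1 and 3.74 in starved library 1. Those 2 cannot be assigned to a gene. For 18 of the 59 regions another place in the clusters aligned over at least 90% of the length. The identity was at least 90% for 4 regions and 94.2% at most, so the gene of those 4 is less certain.

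Single clustered genes were listed irregularly. A peak was in 1 library for 34 of the 59 regions (57.6%, against 56.2% of all regions) and in all 4 for 5 (8.47%, against 10.7%). Of these 5, 3 had both starved values above both control values (beside 22.9% of all regions in 4 libraries) and 1 the reverse (beside 18%). The 3 were Pcdhac2 (30.29 and 29.26 against 46.29 and 51.12), Pcdhga10 (16.40 and 12.45 against 21.40 and 36.03) and Pcdhgb7 (18.71 and 12.27 against 69.47 and 40.84). Their log2 differences were 0.71, 0.96 and 1.81 (SD within groups at most 0.54, n = 2 each; exact permutation p = 0.33 each). The order of Pcdhac2, where starved library 1 had a further peak at 2.92, was lost with the mean fold enrichment per library. Pcdhb22 went the other way, at 229.58 and 229.01 against 66.01 and 180.73, with a log2 difference of -1.07 (exact permutation p = 0.33), although a second starved 1 peak on this gene reached 248.79. Pcdhgc3 stood at 5.62 and 7.04 against 8.72 and 6.58, with overlapping groups.

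Present in both starved libraries and neither control library were regions of Pcdhga4, at 46.49 and 32.37, Pcdhga12, at 20.63 and 17.62, and Pcdhgc5, at 36.36 and 8.55 (3 of 59, 5.08%, beside 3.2% of all regions). In both control libraries only was a region of Pcdhga11, at 51.64 and 11.86 (1 of 59, 1.69%, beside 4.15%). With an overlap of at least 50% of the shorter peak, only the Pcdhgc5 region remained of the 3. Another region of Pcdhga11 was listed in 3 libraries, and Pcdhga12 had one at 31.67 in control library 1, so of these 4 genes Pcdhga4 alone had a peak in one group only.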

How the data were processed

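m6A was profiled by MeRIP-seq in 8 samples: an IP and an input library for 2 replicates each of control and starved fibroblasts, grouped by their titles. Cutadapt was used by the authors for trimming, HISAT2 2.0.4 for alignment to mm10, and MACS2 for calling peaks in each IP library against its input, per the study's methods and the submitters' processing notes. The 4 deposited lists, 1 per IP library, give a fold enrichment (a ratio), a score (the p-value as -10 log10, at least 50.01) and a false discovery rate in percent, per the file headers. The column names are those of an older MACS release. A deposited table of differential peaks holds only the authors' own fold changes, p-values, false discovery rates and directions and was not used. 0 columns of per-sample values were left without a sample. Reads per peak are not in the lists, so the depth behind a value is unknown.

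Starts were raised by 1. Peaks were placed by their centre on RefSeq GRCm38.p6 or GENCODE M21 models (the build of mm10; 90.4% on the transcript the list names, 8.51% on another, 1.09% not placed). Peaks sharing 1 bp were merged into regions, with the highest fold enrichment per library. GGAC was sought on the transcribed strand in 200 bp at the centre. Group differences were tested by the two-sided exact permutation test over the 3 distinct divisions of 4 libraries (smallest p 0.33). Named regions were those with a peak in all 4 libraries or in both libraries of one group only, and other regions are mentioned after their values were seen. Members, lists and the reading-frame count were chosen with earlier results of these data known. Alternatives are given at the end. Python 3.11.15, numpy 2.4.6, pandas 2.3.3, scipy 1.17.1, matplotlib 3.10.9, pysam 0.24.0, samtools 1.23.1 and blastn 2.17.0 were used. The scripts, tested on simulated data with known answers, recovered 18 of 18 quantities.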

Additional observations from a re-analysis of the deposited data

How the results depend on the processing

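With 2 libraries per group no p can fall below 0.33, so the alternatives bear on direction and size only. Without leaving out a library, 37 of 38 group differences kept their direction. The 38 include those of the replicate block, which repeats the reported differences and could not change a direction. With the highest peak per gene, chosen after seeing the data, the log2 difference of non-clustered medians was -0.016 in place of 0.06. Leaving out 1 library gave -0.22 to 0.33 for that difference, -0.24 to 0.55 for the clustered medians, 0.5 to 9.5 for the clustered peaks per library and -12.6 to 1.29 points for the share in long exons. The replicate block gave the same -6 peaks (exact sign-flip p = 0.5, the smallest it allows), since the labels share only a number between groups, and it changed no call.

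Starved-only regions numbered 1 in the clusters with an overlap of at least 50% of the shorter peak, against 3, and 2 outside the clusters, against 1, at a score of at least 100, at a fold enrichment of at least 4 and with lists of equal length. Counts over 3 libraries, chosen after seeing the data, admit more regions by construction. Outside the clusters they ranged from 14 to 19 in every library, 5 to 14 starved-only, 8 to 16 control-only, 7 to 9 with starved above control and 1 to 8 with control above starved. In the clusters they ranged from 6 to 8, 4 to 13, 2 to 11, 4 to 5 and 1 to 3. Of 116 values of named regions, 113 moved by less than the larger SD of the 2 groups. With 2 libraries per group, leaving out 1 library moves a value by less than this SD by construction. Those values among the 113 therefore say nothing about stability. Pcdhac2 (0.41 and 1.08) and Fat4 (0.76) moved more. The log2 difference changed sign in 9 of the 116, all at regions whose groups overlapped. With the mean fold enrichment per library that of Pcdh18 was -0.16 in place of 0.26. Leaving out 1 library turned it at Pcdh18 (-0.32), Pcdh7 (0.78 to -0.12 or -0.14), exon 9 of Fat4 (0.27 to -0.07), exon 1 of Fat1 (0.06 to -0.17), Cdh2 (-0.26 to 0.46), Dchs1 (-0.38 to 0.31) and Cdh11 (-0.33 to 0.02). Positions of summits could not be tried, since the lists used here hold none. The cause of these shifts was not tested.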
